A study of Mus musculus with 6 samples.

Results

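The genes described here release calcium from stores inside the cell, let it enter from outside, pump it out again or bind it in the cytosol. They were taken by name from a list of 36 symbols, which was drawn up with earlier results of these data known; the rule itself uses no measured value. Of the 36, 33 had at least 1 probe set that the array's annotation names with that symbol alone, among 18194 genes measured in this way. Itpr1, Calm2 and Calm3 had no such probe set and were not analysed here. RNA came from adult male mice of strain C57BL/6, from the subventricular zone, a stem cell niche that lines the lateral ventricle. The labels describe the material both as dissected subventricular zone and as isolated cells, with no sorting step named, so the values are read here as those of a mixture of cell types. In 3 samples the tissue was taken on the lesioned side, 48 h after the middle cerebral artery had been blocked (occlusion, MCAO), which models stroke in the striatum and lateral cortex. The other 3 samples came from mice 48 h after sham surgery. No genetic alteration or drug is given for either group, and the labels do not say whether an array held tissue of 1 mouse or of several, so the p-values below measure only how much these samples vary, and that variation may be technical.

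Calcium signals in astrocytes, which the study's title names, start in the textbook scheme at receptors that activate phospholipase C. This enzyme splits a membrane lipid and frees inositol trisphosphate (IP3), which opens IP3 receptors on the endoplasmic reticulum; in neurons and muscle, ryanodine receptors open in addition. STIM proteins sense the emptied store and open ORAI channels in the plasma membrane, and pumps of the SERCA and PMCA families and sodium-calcium exchangers bring the cytosol back to rest. In neurons these signals also serve transmission and plasticity, and calbindin, calretinin and parvalbumin mark classes of neurons.

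The calcium genes differed between MCAO and sham by small amounts, though by more than a typical gene: the median size of the difference was 0.18 log2 over the 33 and 0.074 over all genes. Neither this comparison nor the background shares below were matched for level. Of the 33, 19 lay above the median gene on all 3 sham arrays, against 8638 of all 18194 genes. The part of level in the size of the differences was not tested. Values are log2 expression after quantile normalization between arrays, and differences are MCAO minus sham with limma's moderated standard error (SE). Across the 33 genes the differences ran from -0.35 (Slc8a1) to 0.39 (Plcd4), so 0 of them reached 0.5 log2 in size, with 11 higher and 22 lower in MCAO. Their median was -0.14, against -0.0064 over all genes. By limma, with p adjusted over all genes by the Benjamini-Hochberg method, 0 of 33 passed an adjusted p of 0.05, against a background of 1.12% of all genes that rose and 0.0165% that fell. At an unadjusted p under 0.05, 7 of the 33 differed: Plcd4, Orai1 and Plcb3 were higher (background 6.32%), and Slc8a1, Ryr3, Camkk2 and Trpc4 were lower (background 2.46%). The 95% intervals of the differences, which are not adjusted for the number of genes, had a median half-width of 0.23 log2. At the adjusted threshold larger changes could be missed too: Plcd4, at 0.39 log2, had a limma adjusted p of 0.287.

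**Figure D1:**
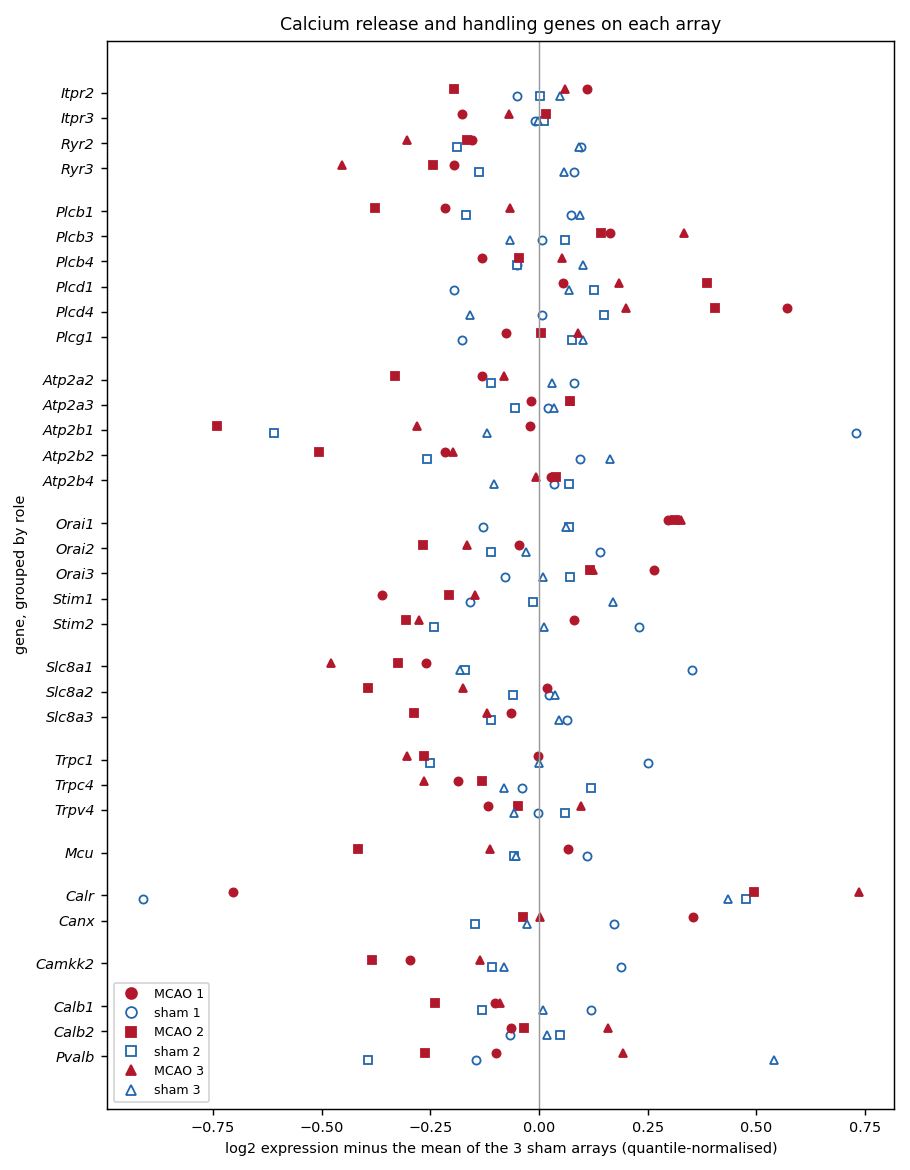
Each row is 1 gene, grouped by role; the x axis is log2 expression on 1 array minus the mean of the 3 sham arrays, with filled red symbols for MCAO, open blue symbols for sham and a shape for each sample number. The 3 MCAO values lie to the right of all sham values for 4 genes (Plcb3, Plcd4, Orai1, Orai3) and to the left for 4 (Ryr3, Slc8a1, Trpc4, Camkk2), and the arrays numbered 1 stand far from the others for Calr.

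The samples are numbered 1 to 3 in both groups, and same-numbered samples deviated together. Over all genes, deviations from the group means correlated at 0.77, 0.44 and 0.48 between the arrays numbered 1, 2 and 3, and over the 33 calcium genes at 0.86, 0.75 and 0.66, as a description across genes that share these arrays. Deviations within a group sum to 0, so the 3 correlations are not independent and do not show a pairing for each number by itself. Correlations between deviations of differently numbered arrays are not given here. Comparing within numbers, which in limma means a term for the sample number (called the block here), 4 of the 33 passed. Plcd4 and Orai1 rose (2 of 33, background 4.82%) and Atp2b2 and Slc8a1 fell (2 of 33, background 1.30%). At an unadjusted p under 0.05 in that fit 15 members were lower (background 8.18%) and 5 were higher (background 10.8%). On the values as deposited, without quantile normalization, the same fit had 6 lower and 6 higher, with 2.80% and 10.2% of all genes; there 2 of 33 rose (4.2% of all genes) and 0 fell (0.28%), while 12 of 33 had an unadjusted p under 0.05.

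Direction within the numbered pairs was counted as well. Of the 33 genes, 16 were lower in MCAO in all 3 pairs, or 48.5%, against 19.9% of all genes, and 7 were higher in all 3, or 21.2%, against 20.0%. On the values as deposited 10 were lower in all 3 pairs, or 30.3%, against 11.1% of all genes, and 7 were higher, or 21.2%, against 20.5%. The median within-pair difference of the 33 genes was -0.11, -0.083 and -0.066 log2 for samples 1, 2 and 3, against 0.00053, -0.027 and 0.021 over all genes. Groups whose values did not overlap were fewer: 4 genes had all MCAO values above all sham values (12.1%, background 8.44%) and 4 had all below (12.1%, background 5.37%). An exact test by exchanging labels of 3 arrays against 3 cannot go below p = 0.1, 2-sided.

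**Figure D2:**
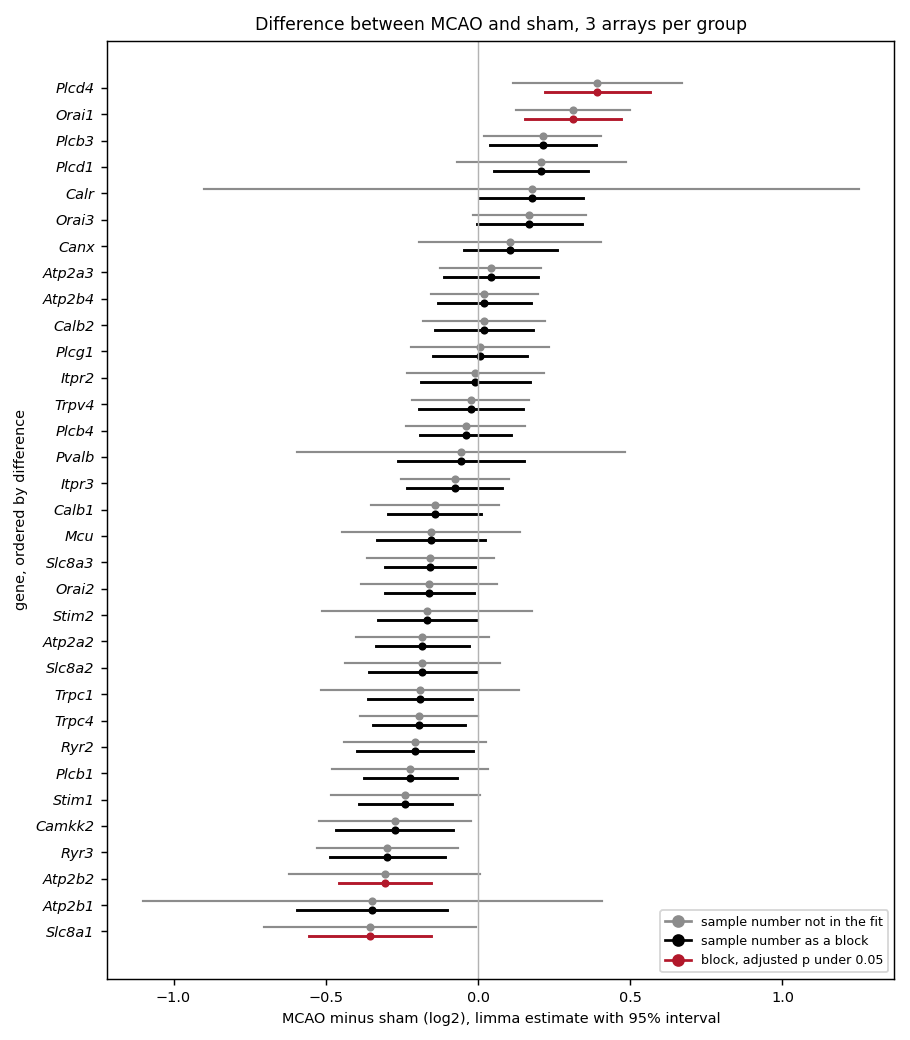
Each row is 1 gene, ordered by its difference; the x axis is MCAO minus sham in log2, points are limma estimates and lines their 95% intervals, grey without the sample number in the fit and black or red with it. Red marks the 4 genes with an adjusted p under 0.05 with the sample number as a block, and the grey interval of Calr, from -0.90 to 1.25, narrows to 0.0080 to 0.34 with the block.

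Among phospholipases C, the enzymes that make IP3, the family was split. Plcd4, a delta-type enzyme, read 8.04, 7.88 and 7.67 on MCAO arrays 1 to 3 and 7.48, 7.62 and 7.31 on sham arrays 1 to 3. Every MCAO value lay above every sham value, though MCAO 3 and sham 2 lay close together. The difference was 0.39 ± 0.12 log2 (SE, n = 3 per group), or 1.31-fold, with an adjusted p of 0.287 by limma, and 0.0149 with the block (SE 0.077). Its other 2 probe sets, which read near the floor of the arrays at means of 5.96 and 5.78, differed by -0.033 and 0.033.

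Plcb3, a beta-type enzyme that G proteins of the Gq class activate, read 7.26, 7.24 and 7.43 in MCAO and 7.10, 7.16 and 7.03 in sham. Its groups did not overlap, and the difference was 0.21 ± 0.083 log2 (SE, n = 3 per group; limma adjusted p = 0.478, and 0.166 with the block). Plcb1, the beta-type enzyme abundant in forebrain neurons, went the other way, with 10.72 ± 0.16 in MCAO and 10.95 ± 0.14 in sham (SD, n = 3). It was lower in all 3 pairs at -0.30, -0.22 and -0.16 log2 and missed the threshold with the block (adjusted p = 0.0954). The 4 other Plcb1 probe sets were lower in all 3 pairs too, and 1 of them, at -0.31 log2, passed with the block when it stood in for the gene (adjusted p = 0.0414).

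Plcd1, another delta-type enzyme, was read by a probe set that may bind related transcripts and averaged 7.41 ± 0.17 (SD, n = 3) after MCAO against 7.20 ± 0.17 after sham surgery. Within pairs it was higher by 0.25, 0.26 and 0.11 log2, and with the block its adjusted p was 0.123. The growth-factor-activated enzyme Plcg1 averaged 8.42 ± 0.084 against 8.42 ± 0.15, a difference of 0.0062 with a 95% interval from -0.22 to 0.23. Plcb4, a beta-type enzyme found in cerebellar and thalamic neurons, averaged 7.83 ± 0.093 against 7.87 ± 0.087. Of the 6 measured phospholipases C, 3 were thus higher in all 3 pairs, 1 was lower in all 3 and 2 were mixed.

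The release channels read level or lower. Ryr3, a ryanodine receptor of brain, read 8.36, 8.31 and 8.10 in MCAO and 8.64, 8.42 and 8.61 in sham. The MCAO values were all below the sham values, with sham 2 only slightly above MCAO 1. The difference was -0.30 ± 0.10 log2 (SE, n = 3 per group; limma adjusted p = 0.363, and 0.0718 with the block). A further Ryr3 probe set was lower in all 3 pairs as well, at -0.23. The third and dimmest read -0.063, with 1 pair higher and 2 lower (adjusted p = 0.721 with the block). Ryr2, the ryanodine receptor of heart and of many brain neurons, averaged 6.84 ± 0.083 (SD, n = 3) after MCAO against 7.05 ± 0.16 after sham surgery, with overlapping groups and pairs of -0.25, 0.022 and -0.39.

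For Itpr2, the IP3 receptor on which astrocyte calcium release mainly rests, probe sets did not point 1 way. It averaged 6.65 ± 0.16 (SD, n = 3) after MCAO against 6.66 ± 0.050 after sham surgery, with a 95% interval of the difference from -0.23 to 0.22 log2. A probe set of similar level, at 0.16 log2, was higher in all 3 pairs (limma adjusted p = 0.298 with the block). Both it and the probe set that stood for Itpr2 may bind related transcripts. The other 4, without that limit, read from -0.059 to 0.035, and those at -0.059 and -0.030 were lower in all 3 pairs. The 6 Itpr2 probe sets lay between means of 5.82 and 6.66, and Itpr2 stood below the median gene on all 6 arrays. The widely expressed IP3 receptor Itpr3 averaged 6.12 ± 0.097 against 6.19 ± 0.0097 and also stood below the median gene throughout.

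Store-operated entry, the pathway through which emptied stores draw calcium in, moved unevenly. Orai1, the pore subunit of the main store-operated channel, read 7.21, 7.22 and 7.24 in MCAO against 6.78, 6.98 and 6.97 in sham. The 3 MCAO arrays lay within a narrow band above all sham arrays. The difference was 0.31 ± 0.080 log2 (SE, n = 3 per group), or 1.24-fold, with a limma adjusted p of 0.182, and 0.0283 with the block. The second Orai1 probe set was higher in all 3 pairs too, at 0.15 log2 (adjusted p = 0.247 with the block). Orai3, a related pore subunit, averaged 7.15 ± 0.083 against 6.98 ± 0.075 (SD, n = 3) without overlap, while Orai2, the subunit most abundant in brain, averaged 7.44 ± 0.11 against 7.60 ± 0.13 and was lower in all 3 pairs. For Orai3 and Orai2 the limma adjusted p was 0.646 and 0.784, and 0.273 and 0.222 with the block.

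Stim1, the store sensor that gates ORAI channels, read 7.50, 7.65 and 7.71 in MCAO and 7.70, 7.85 and 8.03 in sham. The groups overlapped only in MCAO 3, just above sham 1, while every numbered pair was lower, at -0.20, -0.19 and -0.32 log2. Its difference was -0.24 ± 0.11 log2 (SE, n = 3 per group; limma adjusted p = 0.587, and 0.0750 with the block). Stim2, the sensor tuned to small losses from the store, averaged 8.82 ± 0.22 against 8.98 ± 0.24 (SD, n = 3), with pairs of -0.15, -0.063 and -0.29. By the probe sets that stood for these 5 genes, the pore subunits Orai1 and Orai3 were higher in every pair. Orai2, Stim1 and Stim2 were lower in every pair. The second Orai2 probe set, at a mean of 7.36, read -0.066, with 1 pair higher and 2 lower. The second Stim2 probe set, dimmer at a mean of 6.78, read -0.11, also with 1 pair higher and 2 lower. That of Stim1, which may bind related transcripts, read -0.13 and was lower in all 3 pairs.

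The proximal promoter of Orai1 is printed because Orai1 rose within pairs and the RefSeq promoter table (build GRCm38.p6) gives it a single start. The window runs from 250 bases before to 50 after the start, at chr5:123014824-123015123 on the plus strand. Capitals mark matches on either strand to any of 6 motifs. These were the GC box (GGGCGG), the CAAT box (with letters CCAAT), the TATA box (with letters TATAAA), the AP-1 site (with letters TGANTCA), the STAT site (with letters TTCNNNGAA) and the NFAT core (with letters GGAAA), whose factor calcium activates through calcineurin. No matches overlap in this window.
Orai1 promoter: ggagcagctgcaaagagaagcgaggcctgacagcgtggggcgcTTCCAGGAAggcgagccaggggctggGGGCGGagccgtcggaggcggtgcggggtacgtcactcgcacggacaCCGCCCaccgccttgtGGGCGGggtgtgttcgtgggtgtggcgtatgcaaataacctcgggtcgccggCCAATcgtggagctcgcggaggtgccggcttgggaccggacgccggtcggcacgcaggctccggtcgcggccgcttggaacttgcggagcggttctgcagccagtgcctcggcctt
It holds 3 matches to the GC box, 1 to the CAAT box and 1 to the STAT site, with 36 CpG dinucleotides, against a median of 7 over all 32851 windows of the table. Of all windows 35.7% hold the GC box, 37.4% the CAAT box, 8.30% the STAT site, 61.3% the NFAT core, 13.6% the TATA box and 7.81% the AP-1 site. Among 36 windows of the 29 measured calcium genes in the table, 26 hold the GC box, 18 the NFAT core, 13 the CAAT box, and 2 each the STAT site, the TATA box and the AP-1 site. A match is a description of letters in the window, not of binding.

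Of the genes that clear calcium from the cytosol, none was higher in every pair. Slc8a1, the sodium-calcium exchanger of heart, glia and neurons, read 7.52, 7.46 and 7.30 in MCAO and 8.13, 7.61 and 7.60 in sham. The groups did not overlap, and sham 1 stood well above the rest. The difference was -0.35 ± 0.15 log2 (SE, n = 3 per group), or 1.28-fold lower, with a limma adjusted p of 0.547, and 0.0446 with the block. Its 3 other probe sets were dimmer and did not pass, at -0.26, -0.053 and 0.053 log2. Slc8a2 averaged 6.62 ± 0.21 against 6.80 ± 0.052 (SD, n = 3), and Slc8a3 8.95 ± 0.12 against 9.11 ± 0.096. These 2 exchangers of neurons were lower in all 3 pairs, as Slc8a1 was, with adjusted p of 0.239 and 0.233 with the block. For Slc8a2 the difference was only -0.0036 log2 in the samples numbered 1, and it stood below the median gene on all 6 arrays. The other probe set of Slc8a2 read -0.12 and that of Slc8a3, dimmer at a mean of 6.53, read 0.043.

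The Slc8a1 promoter is shown beside that of Orai1 as the window of a gene that fell within pairs, again with a single start in the table. It lies at chr17:81738338-81738637 on the minus strand of GRCm38.p6, with the same marking.
Slc8a1 promoter: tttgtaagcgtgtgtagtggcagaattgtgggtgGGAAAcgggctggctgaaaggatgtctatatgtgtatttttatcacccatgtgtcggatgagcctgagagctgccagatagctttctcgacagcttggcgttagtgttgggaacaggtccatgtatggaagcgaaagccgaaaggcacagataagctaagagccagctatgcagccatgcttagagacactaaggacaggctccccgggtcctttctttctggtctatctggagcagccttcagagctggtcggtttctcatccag
It holds 1 match to the NFAT core and none to the other motifs, and 9 CpG dinucleotides. For Plcd4 and Atp2b2 the table lists 2 and 3 starts, which the arrays do not tell apart; both Plcd4 windows hold the CAAT box and no GC box, and 2 of the 3 Atp2b2 windows hold the GC box.

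Atp2b2, a plasma membrane calcium pump abundant in neurons, read 10.95, 10.66 and 10.97 in MCAO and 11.26, 10.91 and 11.33 in sham. The arrays numbered 2 were the lowest of their groups, so that sham 2 fell among the MCAO values although every pair was lower, at -0.31, -0.25 and -0.37 log2. The difference was -0.31 ± 0.14 log2 (SE, n = 3 per group), or 1.24-fold lower, with a limma adjusted p of 0.589, and 0.0250 with the block (SE 0.068). Of its 2 other probe sets, 1 passed in its place with the block (-0.36 log2, adjusted p = 0.0446) and the other read -0.19 (0.238).

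Atp2b1, the most widespread plasma membrane pump, read 11.69, 10.97 and 11.43 in MCAO and 12.44, 11.10 and 11.59 in sham. Sham 1 stood 1.09 log2 above the mean of sham 2 and sham 3, and MCAO 1 stood 0.49 above that of MCAO 2 and MCAO 3. The difference of -0.35 ± 0.33 log2 (SE, n = 3 per group; limma adjusted p = 0.920) became 0.014 without sham 1, and with the block its adjusted p was 0.107. A dimmer Atp2b1 probe set passed with the block in its place (-0.51 log2, adjusted p = 0.0195), and another read -0.11.

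Atp2a2, the SERCA pump that refills the endoplasmic reticulum in most cells, averaged 11.72 ± 0.13 (SD, n = 3) after MCAO against 11.90 ± 0.095 after sham surgery. It was lower in all 3 pairs at -0.21, -0.23 and -0.11 log2 (limma adjusted p = 0.171 with the block). The next brightest Atp2a2 probe set, at a mean of 11.39, read -0.042, with 1 pair higher and 2 lower. Of its dimmer probe sets, those at -0.20 and -0.12 were lower in all 3 pairs. Those at -0.070 and -0.014 had 1 pair higher and 2 lower. The 2 remaining pumps gave no pattern: Atp2a3, a SERCA pump of blood and epithelial cells, averaged 6.81 ± 0.052 against 6.77 ± 0.047, and the plasma membrane pump Atp2b4 6.14 ± 0.024 against 6.12 ± 0.092. Both stood below the median gene on all 6 arrays.

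**Figure D3:**
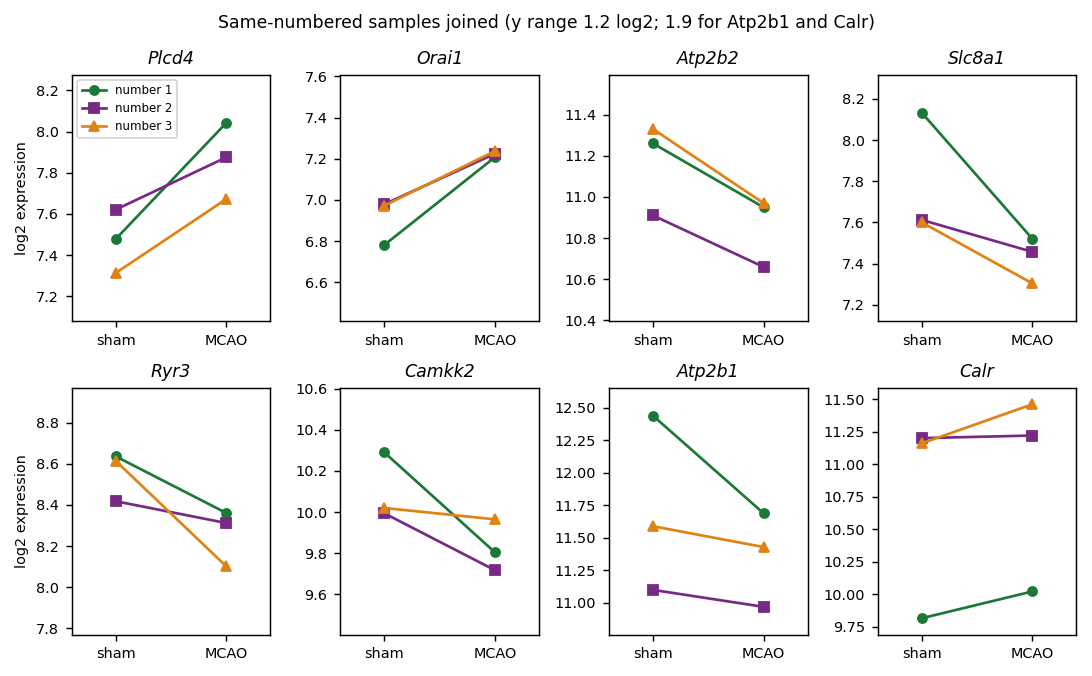
Each panel is 1 gene, the y axis is log2 expression, and lines join the sham and MCAO samples of the same number. Lines slope up for Plcd4 and Orai1 and down for Atp2b2, Slc8a1, Ryr3, Camkk2 and Atp2b1, while the Calr values of the samples numbered 1 lie over 1 log2 below the others in both groups.

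TRP channels, cation channels of the plasma membrane that can follow phospholipase C, gave small differences. Trpc4 read 6.76, 6.81 and 6.68 in MCAO and 6.90, 7.06 and 6.86 in sham. The groups did not overlap, and the difference was -0.19 ± 0.083 log2 (SE, n = 3 per group; limma adjusted p = 0.566, and 0.141 with the block); Trpc4 stood below the median gene on all 6 arrays. Trpc1 averaged 8.06 ± 0.16 against 8.25 ± 0.25 (SD, n = 3) and was lower in all 3 pairs, by as little as -0.015 in the samples numbered 2. Trpv4, a channel opened by osmotic swelling and warmth and found in choroid plexus and some astrocytes, averaged 6.21 ± 0.11 against 6.23 ± 0.059. Mcu, the pore of the mitochondrial calcium uniporter, averaged 7.86 ± 0.24 against 8.02 ± 0.095 and was lower in all 3 pairs (adjusted p = 0.346 with the block).

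Calr and Canx encode calreticulin and calnexin, chaperones of the endoplasmic reticulum, of which calreticulin also stores calcium. Calr read 10.02, 11.22 and 11.46 in MCAO and 9.81, 11.20 and 11.16 in sham. Sample number separated these values far more than surgery did: MCAO 1 stood -1.32 log2 from the mean of the other MCAO arrays, and sham 1 -1.36 from that of the other sham arrays. Calr differed by 0.18 ± 0.46 log2 (SE, n = 3 per group; limma adjusted p = 0.984), and within pairs by 0.20, 0.021 and 0.30 (0.239 with the block). Leaving out sham 1 turned the difference to -0.28, leaving out MCAO 3 to -0.11, and leaving out both arrays numbered 1 gave 0.16. Canx averaged 10.70 ± 0.21 against 10.60 ± 0.16 (SD, n = 3), higher in all 3 pairs, from a probe set that may bind related transcripts. A dimmer Canx probe set without that limit passed with the block in its place, at 0.33 log2 (adjusted p = 0.0377). The third, also without that limit and dimmer still, read 0.010 (0.961).

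Camkk2, the kinase that calmodulin switches on to activate further kinases, read 9.81, 9.72 and 9.97 in MCAO and 10.29, 9.99 and 10.02 in sham. All MCAO values lay below all sham values, with MCAO 3 just under sham 2. The difference was -0.27 ± 0.11 log2 (SE, n = 3 per group; limma adjusted p = 0.486, and 0.102 with the block). Calb1, the buffer protein calbindin of striatal projection neurons and other neurons, averaged 11.16 ± 0.083 against 11.30 ± 0.13 (SD, n = 3) and was lower in all 3 pairs, at -0.23, -0.10 and -0.096 log2. A dimmer Calb1 probe set passed with the block in its place (-0.33 log2, limma adjusted p = 0.0395). Another, at -0.26 log2, was lower in all 3 pairs and did not pass (0.0554). The dimmest read -0.053, with 2 pairs higher and 1 lower (0.832).

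Calb2 and Pvalb, the buffers calretinin and parvalbumin of interneurons, gave no steady direction. Calb2, which new neurons of the olfactory bulb also use, averaged 7.01 ± 0.12 against 6.99 ± 0.060 (SD, n = 3). Pvalb averaged 7.45 ± 0.23 against 7.50 ± 0.48, with sham 3 at 8.04 and sham 2 at 7.11, so that the spread within sham exceeded any difference between groups.

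The 4 calls within pairs depended on which samples and scaling entered the fit. Leaving out MCAO 1 or sham 1, which leaves 2 pairs, gave adjusted p by limma with the block of 0.143 for Plcd4, 0.295 for Orai1, 0.145 for Atp2b2 and 0.420 for Slc8a1. Without MCAO 3 or sham 3, Plcd4 passed (0.0470) and Orai1 (0.0791), Atp2b2 (0.132) and Slc8a1 (0.104) did not. Leaving out MCAO 2 or sham 2 kept all 4 and added Ryr2, Ryr3, Atp2b1 and Trpc1, all lower. The share of all genes called in these fits is not given here, so the added calls have no background to be read against. On the values as deposited Plcd4 (0.0125) and Orai1 (0.0462) passed, while Atp2b2 read -0.26 (0.208) and Slc8a1 -0.32 (0.138). With the mean of all probe sets of a gene, 0 of the 4 passed (Plcd4 0.314, Orai1 0.0571, Atp2b2 0.0626, Slc8a1 0.249) and Atp2b1 did, at -0.32 log2 (0.0151).

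Markers of cell types moved in the same samples. In a mixture of cells, fewer cells of a type and less RNA per cell cannot be told apart. All 10 measured markers of striatal projection neurons were lower in MCAO (median -0.18), and their summed level on the linear scale ran from 25900 to 27500 in MCAO and from 29600 to 33100 in sham. Of 12 markers of other neurons 11 were lower (median -0.16; sums of 17800 to 20800 against 21800 to 23600). No neuronal marker passed without the block, and with it Drd1, a dopamine receptor gene, and the neurofilament genes Nefl and Nefm fell. All 10 markers of microglia and macrophages were higher (median 0.56, with sums of 4440 to 7600 against 3370 to 3750). Of these, Aif1, Cd68, Ptprc and Mrc1 rose without the block, and 8 of the 10 rose with it. Of 10 astrocyte markers 7 were higher and 3 lower (median 0.14). Aldh1l1 and Aqp4 rose without the block, and 4 of the 10 rose with it. Slc1a3 was among those 4, higher in all 3 pairs at 0.44 log2 (limma adjusted p = 0.0101 with the block). Slc1a2 was lower in all 3 pairs, at -0.28 log2, and did not pass (0.063). The astrocyte sums, 21100 to 23900 against 18000 to 20500, include Gfap, and sums without it are not given here. Gfap, the filament gene of reactive astrocytes, read 9.91, 11.63 and 11.96 in MCAO and 7.29, 9.13 and 9.02 in sham, 2.69 ± 0.63 log2 higher (SE, n = 3 per group; limma adjusted p = 0.14, and 5.62e-07 with the block). As for Calr, both arrays numbered 1 read low. The part of these shifts in the values of the calcium genes was not tested.

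In the remaining marker lists the summed levels of the groups overlapped, although some lists were higher in most pairs. All 8 ependymal markers were higher in MCAO (median 0.25), 7 of them in all 3 pairs, and Rarres2 rose with the block. All 9 markers of stem cells, progenitors and neuroblasts were higher as well (median 0.14), 5 of them in all 3 pairs, and Cd24a rose with the block. The 9 markers of stem cells, progenitors and neuroblasts, which define the labelled niche, all lay above the median gene on all 3 sham arrays, as did all 8 ependymal markers; their sums ran from 6170 to 8300 and 3260 to 5260 in MCAO against 4750 to 6460 and 2640 to 4910 in sham. The 10 striatal markers lay above it as well, while 2 of 7 choroid plexus markers did (sums of 695 to 815 against 742 to 819). Oligodendrocyte markers summed to 21300 to 26700 against 22600 to 29600, and endothelial and mural markers to 2450 to 2680 against 2440 to 2660. None of these lists had a marker at 0, which the log2 scale does not reach.

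Other genes of calcium signalling reached larger differences than the 33, from -0.74 to 0.77 log2, in both directions. Of 117 measured in 9 lists, 1 rose by limma, against a background of 1.12% of all genes, and 116 did not pass. In MCAO 54 were higher and 63 lower (median -0.014). The gene that rose was Calu, for calumenin, a calcium-binding protein of the secretory pathway. Calu read 9.45, 9.30 and 9.39 in MCAO and 8.95, 8.99 and 8.88 in sham, clearly apart, a difference of 0.44 ± 0.075 log2 (SE, n = 3 per group; adjusted p = 0.0427). It did not pass on the values as deposited (0.102), with shifted arrays (0.109), with the mean of probe sets (0.217), with limma's trend option (0.13), with a dim-gene filter (0.0657), or without any 1 of the 6 arrays (0.0746 to 0.232); without MCAO 1, Camk2a and Cib1 passed instead. P2ry6 passed in its place as deposited (0.0406), with shifted arrays (0.0444) and with the trend option (0.0246).

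With the block, 10 of the 117 rose, against 4.82% of all genes, and 7 fell, against 1.30%. By p, the first were Cib1, a small calcium- and integrin-binding protein, at 0.60 log2 (adjusted p = 0.000523), the Ras-linked phospholipase Plce1 at 0.61 (0.000616), the UDP receptor P2ry6, which microglia use, at 0.77 (0.00323), and Calu (0.00479). Next were Plcg2, the phospholipase C of immune cells, at 0.53 (0.00610), Mcur1, a regulator of the mitochondrial uniporter, at 0.34 (0.0139), the calmodulin-dependent kinase Camk1 at 0.33 (0.0154) and the thrombin receptor F2r at 0.37 (0.0203). Pcp4, a calmodulin-binding peptide of neurons, fell by 0.33 (0.0224), and Camk2a, a kinase of excitatory synapses, fell by 0.74 (0.0291), with pairs of -0.070, -1.25 and -0.90. Between them the lists pointed different ways: 8 of 9 further calcium-binding proteins of the endoplasmic reticulum were higher (median 0.12), as Calr and Canx were, and 9 of 11 neuronal calcium sensors were lower (median -0.17).

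**Figure D4:**
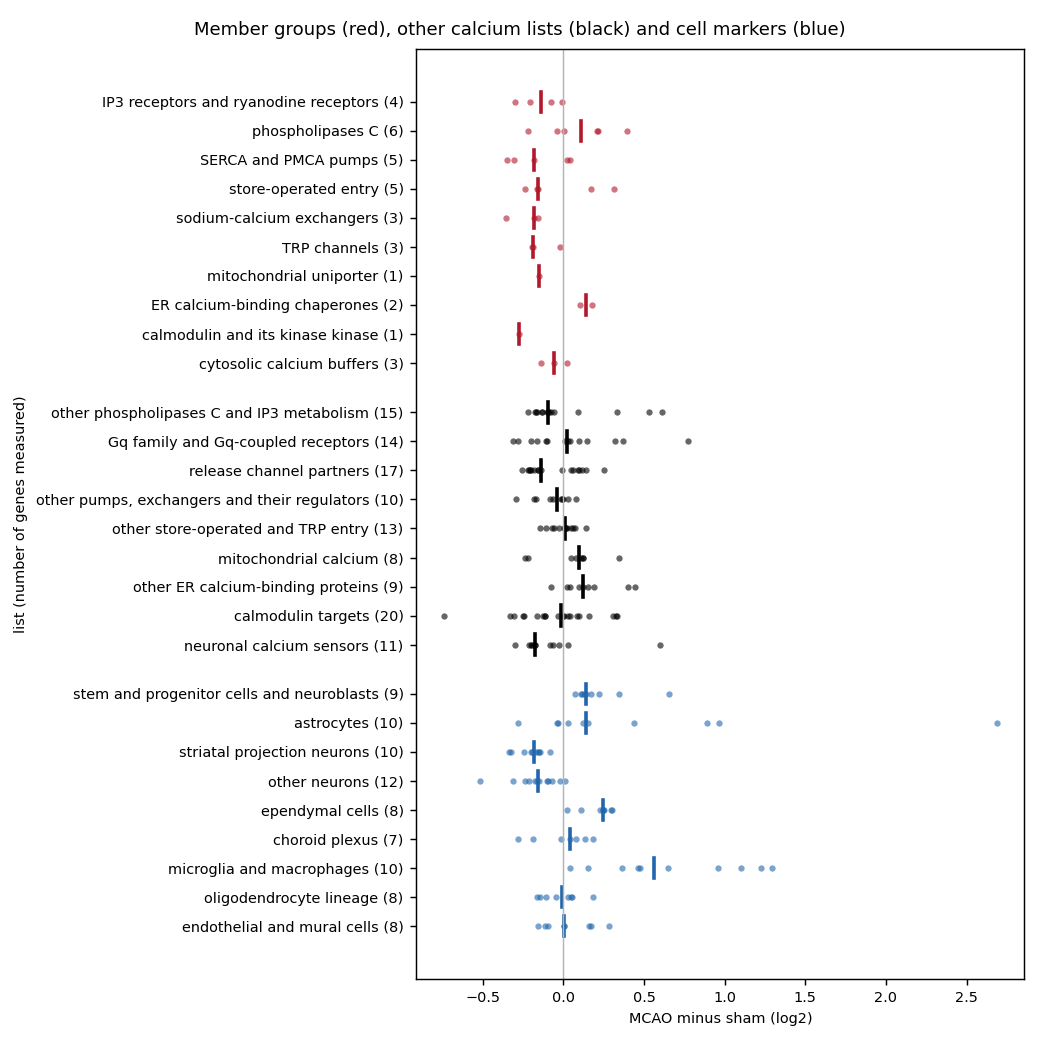
Each dot is 1 gene and each tick the median of its list; the x axis is MCAO minus sham in log2, with the 33 calcium genes by role in red, other calcium signalling genes in black and cell markers in blue. Phospholipases C and reticulum chaperones have medians of 0.11 and 0.14. The medians of the other calcium gene groups in red lie below 0, though some of their genes lie above it. The microglia and macrophage list has the highest median at 0.56.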

How the data were processed

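Gene expression was measured on 6 one-colour arrays, 3 MCAO and 3 sham. The authors deposited log2 values for 45101 probe sets; for background correction, probe summary and normalization, no method is stated in the labels. The 90th percentiles differed between arrays (8.85 to 9.06), so quantile normalization was added. The array's annotation gave 1 symbol to 34958 probe sets, several to 932 and none to 9211. For a gene with several, the brightest over all 6 arrays stood for it, as for 26 of the 33 members. Of their 54 other probe sets 47 had the same sign. Put in place of the brightest, 0 of the 54 passed without the sample number as a block, and 5 passed with it. Probe sets ending in _s_at or _x_at, 3 among those used, may bind related transcripts. All 33 members were found by gene number in RefSeq (GRCm38.p6), with 0 symbols changed.

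Differences between MCAO and sham were fitted with lmFit and eBayes (limma 3.58.1, R 4.3.3), 2-sided, adjusted by Benjamini-Hochberg over 18194 genes, threshold 0.05, with and without the sample number as a block. The numbers pair the samples only by the correlation of same-numbered deviations (0.77, 0.44 and 0.48), which are not independent of each other. What the numbers mean is not explained in the labels. The number of arrays limits the precision, and a level above or below the median gene compares different probe sets, whose signals are only roughly comparable. Every measured member is named; those with an unadjusted p under 0.05, or past the threshold with the block, have every array given, as have Calr, Atp2b1 and Stim1, chosen after their values were seen. Of other calcium genes, up to 10 by p were named. Members and lists were chosen with earlier results of these data known. The fit was tested on simulated data.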

Additional observations from a re-analysis of the deposited data

How the results depend on the processing

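None of the 33 calcium genes passed by limma without the block under any of the 14 alternatives without it (unadjusted p under 0.05 for 3 to 10 of them). The replicate block gave 4 and, on the values as deposited, 2. For the comparison within numbers, no replicate block gave 0, the values as deposited 2, arrays shifted to a common median 1, the mean of probe sets 1, both arrays numbered 1 left out 0, and single arrays left out 0 to 8; avoiding _s_at and _x_at probe sets added Canx. The median difference of -0.14 was -0.10 as deposited, with the block or without it, -0.12 with shifted arrays, -0.076 with the mean of probe sets, -0.11 without both arrays numbered 1, and -0.18 to -0.078 with single arrays left out. Genes lower in all 3 pairs numbered 16, and 10 as deposited. Other calcium genes past the threshold (1) numbered 0 with the mean of probe sets or without dim genes, 3 without both arrays numbered 1, 0 to 2 without single arrays, and 17 with the block or 11 with it as deposited. Over all genes the count of 206 became 1113 with the block, 816 with it as deposited, and 44 (without sham 3) to 209 without single arrays, with 98 without MCAO 3, 125 without sham 1 and 132 without sham 2. Of the 33 genes 23 kept their direction under all alternatives; Itpr2, Plcb4, Plcg1, Atp2b1, Atp2b4, Trpv4, Calr, Canx, Calb2 and Pvalb did not. The cause of these changes was not tested. Blocked fits with an array left out rest on 2 pairs, and the share of all genes called in them is not given here. The alternatives with the block, other than the deposited values, and those for direction in pairs were added after seeing the data. Signal over background was not analysed here; 8 of the 33 lay below the median gene on all 6 arrays.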
